A study of Homo sapiens with 2 samples.

Results

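The S100 and annexin families of calcium-binding proteins were followed in a temozolomide-resistant glioma clone through 8 genes: S100A4, S100A6, S100A11, S100A13, S100A16, ANXA1, ANXA5 and ANXA6. They were chosen by name as S100 and annexin genes of mesenchymal glioma cells, and all 8 were found among the 15603 genes of the deposited table. Both libraries came from A172, an established human glioblastoma cell line. One was the unselected parental line, which the labels give as grown without temozolomide (TMZ, the alkylating drug used against this tumour). The other was A172-r#6, a clone selected with TMZ and given in the labels as grown with it. The resistant group is therefore 1 clone, and clone, selection and drug exposure differ together. There was 1 library in each group and no replicate, so every difference is one between 2 libraries and has no replicate check. Levels are in FPKM, a fragment count divided by transcript length and library size. The length used for each gene is not stated. Levels of short S100 and longer messages, and ratios between genes, can therefore be compared only roughly. Depth is unknown.

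S100 proteins are small EF-hand proteins that mostly act as dimers. On binding calcium they open a surface that grips other proteins, among them cytoskeletal proteins and annexins, and some are released from cells as signals. Annexins bind acidic phospholipids when calcium rises, and so reach the inner face of injured or trafficking membranes. Several S100 proteins pair with particular annexins, S100A10 with ANXA2 and S100A11 with ANXA1 being the best known. In gliomas, S100A4, S100A6, ANXA1 and their relatives are known as abundant genes of tumours of mesenchymal type.

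Of the 8 genes, S100A4 was lower in the clone by 2-fold or more, and none was higher by that much. Fold means log2 of (resistant FPKM + 1) over (parental FPKM + 1), and a gene was called when it differed by 2-fold or more. Among all 13937 tested genes, those with 1 FPKM or more in either library, 3.82% were called lower and 4.59% higher. Of the 1319 tested genes with at least 50 FPKM in either library, 3.03% were called lower and 8.26% higher. A count of 1 in 8 is too small to be read against these shares. The remaining genes were higher (5) or lower (2) by less than 2-fold. The median log2 fold of the 8 was 0.25, beside 0.04 over all tested genes and 0.14 over those with at least 50 FPKM. When the resistant library was scaled to the summed FPKM of the parental one, with the pseudocount kept, the median of all genes moved from 0.04 to -0.06. Then 492 genes were called higher and 646 lower, beside 640 and 532 on the deposited scale. No gene of the 8 changed sign under that or any other scaling tried.

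**Figure D1:**
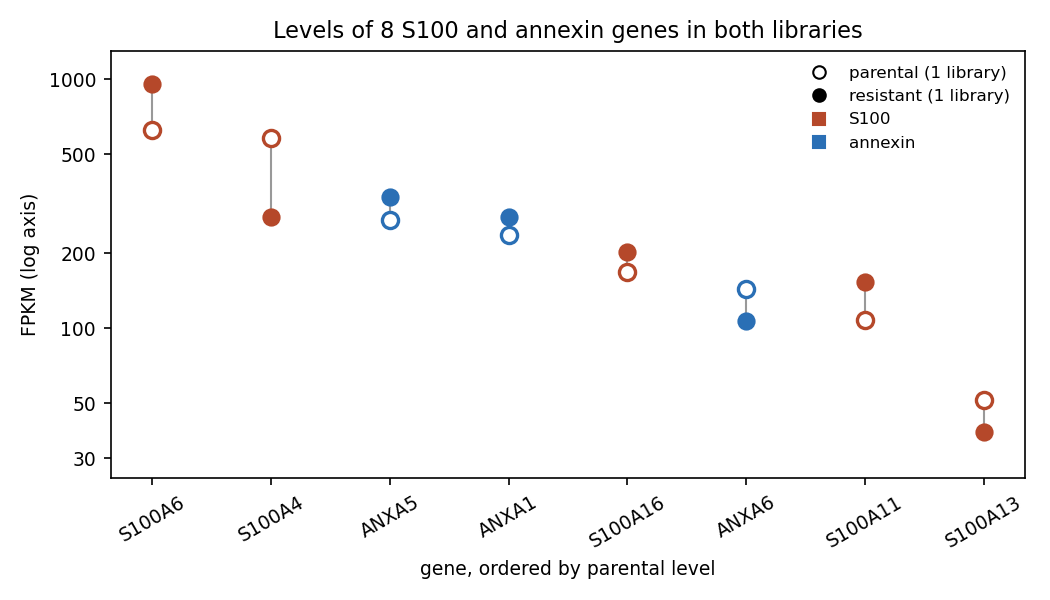
FPKM (log axis) of the 8 genes in the parental (open) and resistant (filled) library, 1 library each, with no error bar because there is no replicate. S100A4 drops from 582 to 280 FPKM while S100A6, next to it in parental level, goes from 622 to 959.

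S100A4, known as metastasin, binds the heavy chain of nonmuscle myosin and promotes cell motility. S100A4 (ENSG00000196154, chromosome 1, 153543613 to 153550136, GRCh38, minus strand) had 582 FPKM in the parent and 280 in the clone. That is a plain ratio of 2.08-fold lower and a log2 fold of -1.05, just past the threshold. S100A4 was the 22nd most abundant listed gene in the parental library and the 105th in the resistant one. Of all tested genes, 3.32% had a lower log2 fold. In the authors' deposited table its q-value was 0.000269.

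S100A6, calcyclin, is known from proliferating cells, and its gene lies close to that of S100A4. S100A6 (ENSG00000197956, chromosome 1, 153534599 to 153536244, minus strand) had 622 FPKM in parental cells and 959 in the clone, a log2 fold of 0.62. It was the 20th most abundant listed gene in the parental library and the 11th in the resistant one. It was the highest of the 8 in both. The level of S100A4 was 0.936 times that of S100A6 in the parental library and 0.292 times in the resistant library, a 3.21-fold smaller ratio. S100A6 by itself stayed under the threshold, and its q-value in the authors' deposited table was 0.286.

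The letters just before the starts of S100A4 and S100A6 are shown, with S100A11, ANXA1 and ANXA5 for comparison. All are from RefSeq promoter windows (GRCh38.p14), read 5′ to 3′ on the gene's own strand. In the first pair capitals mark the TATA box, searched as TATAAA. In the last 3 they mark the GC box, searched as GGGCGG.
S100A4, chr1:153545820-153545849, minus strand: gcctggctggggTATAAAtaggtcagacct
ANXA1, chr9:73151822-73151851, plus strand: cctttaaaatccTATAAAatcagaagccca
S100A6, chr1:153536056-153536085, minus strand: gcgcGGGCGGgacttGGGCGGGCGGggtgg
S100A11, chr1:152037055-152037084, minus strand: ggaggcggggagGGGCGGggcaggcgcgga
ANXA5, chr4:121697074-121697103, minus strand: aggccggggcagGGGCGGgcccggctggcg

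The TATAAA of S100A4 and of ANXA1 both begin 31 bases before the RefSeq start. S100A4 was lower and ANXA1 slightly higher in the resistant library. The window of S100A6 held 3 matches to GGGCGG, a pair of which overlap, beginning 90, 79 and 75 bases before its start, and no TATAAA. It does hold TATAAG close to the start, which differs from TATAAA in its last letter and was not searched. The windows of S100A11 and ANXA5 held 1 GGGCGG each, and both genes were higher by less than 2-fold. GGGCGG was also found in a window of S100A16, which was higher, and in windows of S100A13 and ANXA6, which were lower. Another window of S100A13 held TATAAA. Both motifs stood before genes of either direction among the 8, and a link between motif and direction was not tested. Both strands of the 250 bases before each of 35116 RefSeq starts were searched. TATAAA was found in 10.7% of them and GGGCGG in 42.6%. The printed site of S100A6 lies in an exon of 2 of its 5 GENCODE transcripts, and that of S100A4 in an exon of 1 of 6. Those transcripts begin further upstream. The site of ANXA1 lies in an exon of 1 of 8 transcripts, that of ANXA5 in 1 of 11 and that of S100A11 in 0 of 2. A match is a run of letters and was not tested as a binding site. The other motifs searched were CCAAT (in 32% of windows), TGANTCA, the AP-1 site (6.57%), CACGTG, an E-box (6.34%), and TGACNNNGC, the antioxidant response core (10.9%). None of these 4 was found in the windows of S100A4 or S100A6, which says only that these letters are not there.

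S100A11 binds ANXA1 when calcium rises and takes part in membrane repair. S100A11 (ENSG00000163191, chromosome 1, 152032506 to 152047907, minus strand) had 108 FPKM in parental cells and 153 in resistant ones, a log2 fold of 0.49. S100A16, a widely expressed relative, had 167 and 202 FPKM and a log2 fold of 0.27 (ENSG00000188643, chromosome 1, 153606886 to 153613145, minus strand). Neither difference reached 1.5-fold. S100A11 has processed copies elsewhere in the genome that can take up its reads.

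S100A13 is needed for release of the leaderless growth factor FGF1 and takes part in that of interleukin 1 alpha. S100A13 (ENSG00000189171, chromosome 1, 153618787 to 153631360, minus strand) was the least abundant of the 8, at 51.6 FPKM in the parent and 38.4 in the clone, a log2 fold of -0.42. It shares 235 exonic bases with S100A1 on the opposite strand and 536 with the noncoding gene RP1-178F15.5 on its own strand. These 2 genes were listed at no more than 1.18 FPKM. Whether strand was used in counting is not given in the sources used here, so reads of S100A13 and S100A1 may not be fully told apart.

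ANXA1 is the annexin that restrains inflammation through formyl peptide receptors and is cut by proteases when released. ANXA1 (ENSG00000135046, chromosome 9, 73151757 to 73170393, plus strand) had 237 FPKM in parental cells and 280 in the clone, a log2 fold of 0.24. ANXA5, best known as the probe for phosphatidylserine on dying cells, had 271 and 335 FPKM and a log2 fold of 0.31 (ENSG00000164111, chromosome 4, 121667955 to 121697113, minus strand). Both were a little higher in the resistant library, and 34.5% and 29.6% of tested genes had a higher fold.

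ANXA6, the largest annexin with a doubled core, acts in endocytosis and cholesterol handling at membranes. ANXA6 (ENSG00000197043, chromosome 5, 151100712 to 151157882, minus strand) had 144 FPKM in parental cells and 107 in resistant ones, a log2 fold of -0.43. It was the lone annexin of the 8 that was lower. In the authors' deposited table its p-value was 0.00748 and its q-value 0.0710. There, S100A4 alone of the 8 had a q-value under 0.05, a limit chosen here, and 3.98% of all listed genes were lower with such a q-value. The other 7 had q-values from 0.0710 to 0.768. The authors' test is not stated, and with 1 library a side it can speak only of these libraries.

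**Figure D2:**
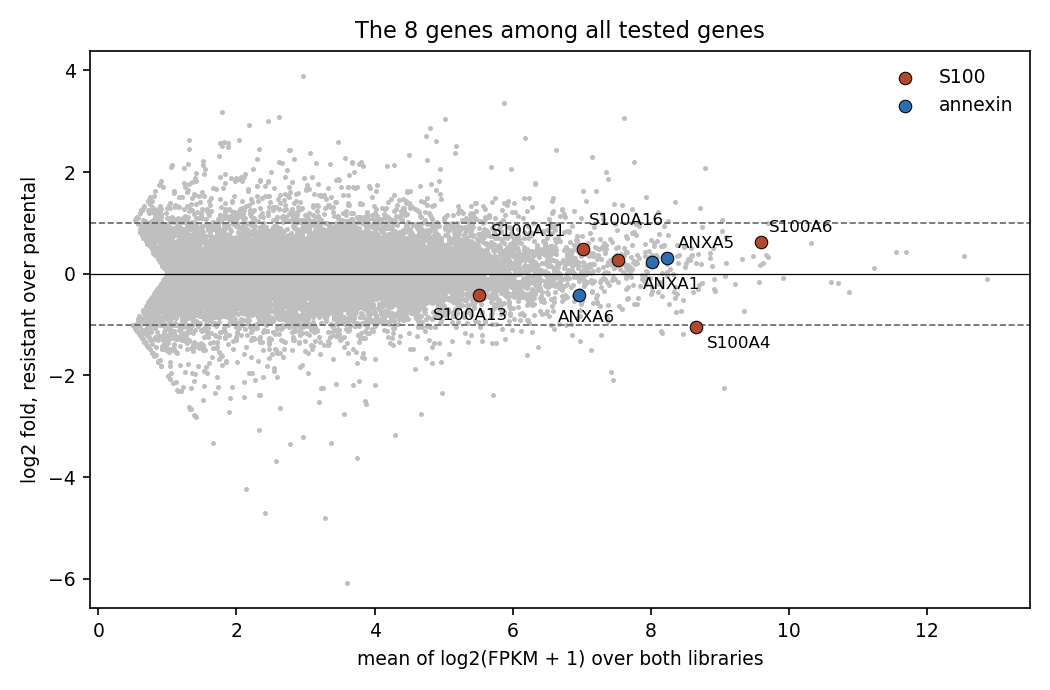
Log2 fold (resistant over parental) against mean log2(FPKM + 1) for all 13937 tested genes (grey), with the 8 genes coloured by family and dashed lines at 2-fold. All 8 lie at high levels, and S100A4 alone lies beyond a dashed line.

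In levels, the order in the parental library was S100A6, S100A4, ANXA5, ANXA1, S100A16, ANXA6, S100A11 and S100A13. In the resistant library it was S100A6, ANXA5, ANXA1, S100A4, S100A16, S100A11, ANXA6 and S100A13. S100A4 and ANXA1, at 279.6 and 279.8 FPKM, were nearly equal there. Without replicates it cannot be said which neighbours in these orders differ. The 5 S100 messages are short, with coding lengths from 270 bases in S100A6 to 315 in S100A11 (GENCODE release 29). ANXA1, ANXA5 and ANXA6 have coding lengths of 1038, 960 and 2019 bases. Together the 8 genes made up 0.729% of the summed FPKM in the parent and 0.726% in the clone.

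The rest of the S100 family had lower levels, except for S100A10. Of 21 family names, 12 were listed and 10 tested, and S100A4 was the only one of the 10 called (lower). Over all tested genes 3.82% were called lower, and 1 of 10 is too small a count to read against that share. S100A10, the light chain that holds ANXA2 at the membrane and lacks working calcium sites, had 537 FPKM in the parent and 437 in the clone (log2 fold -0.30). S100A3 had 16.7 and 21.1 FPKM (0.32). In GENCODE it lies within the span of S100A4 on the same strand and shares no exonic base with it. It lies upstream of the RefSeq start of S100A4 used for the letters above. S100A2, known from epithelia, had 3.63 and 3.07 FPKM (-0.19), and S100A5 had 2.67 and 2.26 (-0.17).

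S100A1, a regulator of calcium release in muscle, had 1.18 FPKM in parental cells and 0.443 in the clone (-0.59). By the plain ratio S100A1 was 2.66-fold lower, which the pseudocount hides. S100Z had 0.845 and 0.736 FPKM, under the 1 FPKM filter. S100A14 was listed at 0 in the parental library and at 0.726 FPKM in the resistant one, also under the filter. In the authors' deposited table its q-value was 0.0129. The remaining 9 names, among them S100B, the glial marker, and the myeloid pair S100A8 and S100A9, were not analysed here. The 12 listed S100 genes summed to 2094 and 2097 FPKM, or 0.699% of the summed FPKM in the parent and 0.647% in the clone. S100A4 was lower by 302 FPKM and S100A10 by 100.4, while S100A6 was higher by 337.

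**Figure D3:**
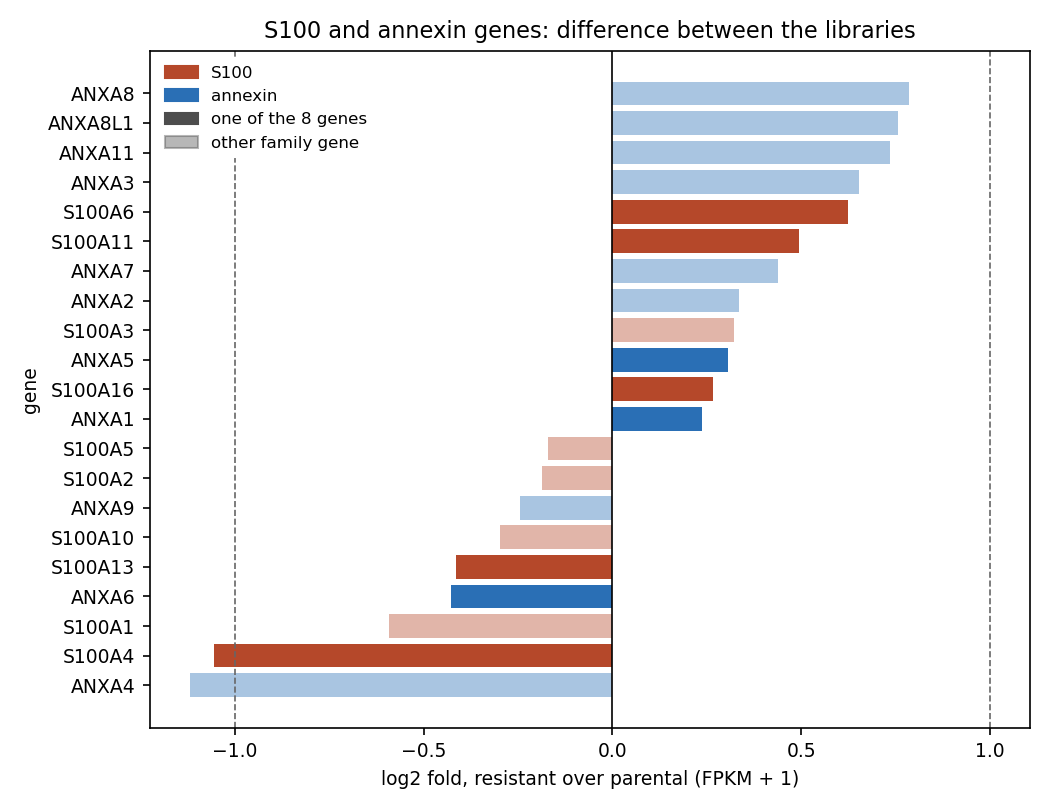
Log2 fold of the 21 tested S100 (red) and annexin (blue) genes, full colour for the 8 genes and pale for other family members, with dashed lines at 2-fold. S100A4 at -1.05 and ANXA4 at -1.12 are the bars that pass a dashed line.

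Among the annexins, 11 of 13 names were listed and tested, and ANXA4 was the only one called (lower). Beside the 3.82% called lower over all tested genes, 1 of 11 is too small a count to read. ANXA4, an annexin of epithelial and secretory membranes, had 101 FPKM in parental cells and 46.1 in resistant ones, a log2 fold of -1.12. In the authors' deposited table its q-value was 0.000460. ANXA2, the partner of S100A10 and a surface receptor for plasminogen, was the most abundant annexin, with 742 and 936 FPKM (0.34). It has processed pseudogenes, of which ANXA2P2 was listed at 1.90 and 2.35 FPKM, so its reads may be split.

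Of the 11 annexins, 8 had positive folds, all under 2-fold, beside 7431 positive folds among all 13937 tested genes. ANXA3 had 45.0 and 71.3 FPKM (0.65), ANXA7, which binds secretory granules, had 53.7 and 73.1 (0.44), and ANXA11, a partner of S100A6, had 18.6 and 31.6 (0.74). Its q-value, in the authors' deposited table, was 0.0280. ANXA8 had 4.76 and 8.93 FPKM (0.79) and ANXA8L1 3.90 and 7.27 (0.76). These are near-identical copies on chromosome 10, so the split between them is uncertain. ANXA9 had 3.61 and 2.89 FPKM (-0.25). ANXA10 and ANXA13 were not analysed here. Summed annexin FPKM was 1624 in the parent and 1899 in the clone, or 0.542% and 0.586% of the summed FPKM of all listed genes.

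Ratios between known partners, and between the annexins ANXA5 and ANXA6, were read within each library. S100A10 stood at 0.725 times the level of ANXA2 in the parental library and at 0.467 times in the resistant one. S100A11 stood at 0.456 and 0.546 times the level of ANXA1, and S100A6 at 33.5 and 30.3 times that of ANXA11. The S100A4 level was 7.32 times that of MYH9, the nonmuscle myosin heavy chain it binds, in the parental library and 1.97 times in the resistant one. MYH9 itself had 79.5 and 142 FPKM. Of these ratios the one of S100A4 to MYH9 differed most, by 3.72-fold. ANXA5 stood at 1.88 times the level of ANXA6 in the parental and 3.14 times in the resistant library.

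The listed S100 genes other than S100Z sit on chromosome 1 in and near band 1q21, so their neighbours were examined. S100A5, which lies between S100A6 and S100A4, and S100A2, the next listed gene past the GENCODE span of S100A4, were low and differed by less than 1.5-fold. Within 1 Mb of the stretch from S100A6 to S100A1, 27 other genes were tested. Their median log2 fold was 0.03, with 15 positive, 12 negative and none called, beside 4.59% called higher and 3.82% lower over all tested genes. S100A4 was the only tested gene called in this stretch, S100 genes included. For the annexins, the nearest listed genes, with their log2 folds, were ZFAND5 (0.15) and C9orf40 (0.67) beside ANXA1, EXOSC9 (-0.43) on one side of ANXA5, and TNIP1 (0.47) and CCDC69 (0.18) beside ANXA6.

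**Figure D4:**
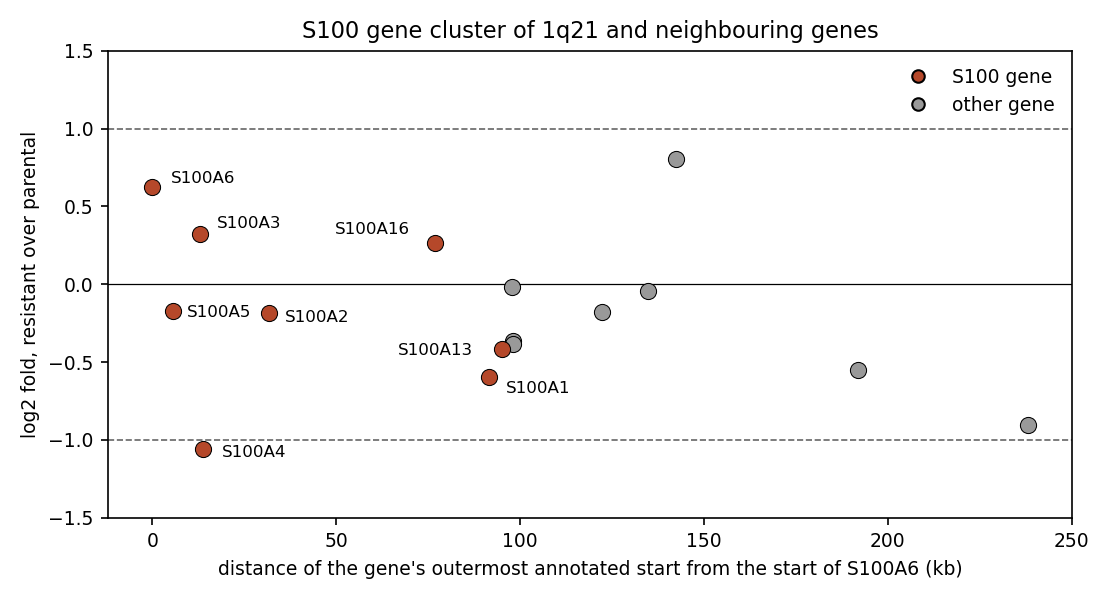
Log2 fold of tested genes against the distance (kb) of each gene's outermost annotated start from that of S100A6, S100 genes in red and others in grey, with dashed lines at 2-fold. S100A6 (0.62) and S100A4 (-1.05), with S100A5 between them, lie at opposite ends of the S100 range.

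Partners of these proteins in membrane repair, plasminogen activation and calpain action were taken as a list. Of 24 names, 21 were tested, 1 was called higher and none lower, with a median log2 fold of 0.13. Beside the 4.59% and 3.82% called over all tested genes, such counts are no result about the partners. At 1.5-fold, 3 were called higher and 2 lower, beside 2020 and 1674 of all 13937 tested genes. PLAU, the urokinase that activates plasminogen, had 3.72 FPKM in parental cells and 9.74 in the clone (1.19). PLAT, the tissue plasminogen activator that binds ANXA2, had 164 and 314 FPKM (0.94), short of the threshold. MYH9 had a log2 fold of 0.83. CAPNS1, the small subunit of the calpain proteases, had 243 and 149 FPKM (-0.70).

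Receptors and release factors of S100 proteins and ANXA1 held 8 tested genes of 16 names, with 1 called higher and 1 lower (median 0.29). Over all tested genes 4.59% were called higher and 3.82% lower, and such counts in 8 genes are no result about the list. ABCA1, the cholesterol exporter also linked to ANXA1 release, had 14.8 FPKM in parental cells and 80.5 in resistant ones (2.37). TLR4, a receptor of S100A8 and S100A9, had 7.66 and 2.54 FPKM (-1.29). AGER, the receptor for many S100 proteins known as RAGE, had 2.74 and 1.35 FPKM (-0.67), under the threshold, though its plain ratio was 2.04-fold lower. IL1A, the cytokine released with help of S100A13, had 0.138 and 1.02 FPKM (0.83). The formyl peptide receptors FPR1, FPR2 and FPR3 were not analysed here.

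Other EF-hand calcium sensors served as a comparison family. Of 23 names, 15 were tested, with 1 called higher, 1 lower and a median log2 fold of 0.04. Beside 4.59% higher and 3.82% lower over all tested genes, these counts are no result about the family. PVALB, the calcium buffer parvalbumin, had 4.42 FPKM in the parent and 0.260 in the clone (-2.11). EFHD2, an actin-binding EF-hand protein, had 5.91 and 15.1 FPKM (1.22). CALB2, calretinin, had 3.23 and 1.30 FPKM (-0.88). CALM3, a calmodulin gene, had 28.0 and 18.2 FPKM (-0.59).

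Other genes of the mesenchymal glioma state were set beside the 8, which are named for that state. Of 19 names, 16 were tested, 3 were called higher and none lower, with a median log2 fold of 0.27. Of the 16, 10 had positive and 6 negative folds. Over all tested genes 4.59% were called higher, and 8.26% of those with at least 50 FPKM, so that 3 of 16 is a small count to read against either share. CEBPB, a transcription factor of the mesenchymal state, had 26.2 FPKM in parental cells and 70.3 in the clone (1.39). Fibronectin, FN1, had 4.45 and 10.3 FPKM (1.05), and FOSL2, an AP-1 subunit, had 20.0 and 41.6 (1.02). TGFBI, a secreted matrix protein induced by TGF-beta, went the other way, with 4.74 and 1.99 FPKM (-0.94). By the plain ratio TGFBI was 2.39-fold lower, and it was called lower with a smaller pseudocount, with none and after either scaling to equal sums. TAGLN, an actin-binding protein of smooth muscle, had 25.5 and 14.3 FPKM (-0.79). CD44 (0.94) and LGALS3 (0.88) were higher by less than 2-fold on this scale. After upper quartile scaling, and after scaling to the parental sum, CEBPB was the only gene of the list called higher, and none was called at 4-fold. At 1.5-fold, 7 of the list were called higher and 2 lower, beside 2020 and 1674 of all 13937 tested genes. S100A4 was lower beside a list with more positive than negative folds, and no contrast between them was tested.

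**Figure D5:**
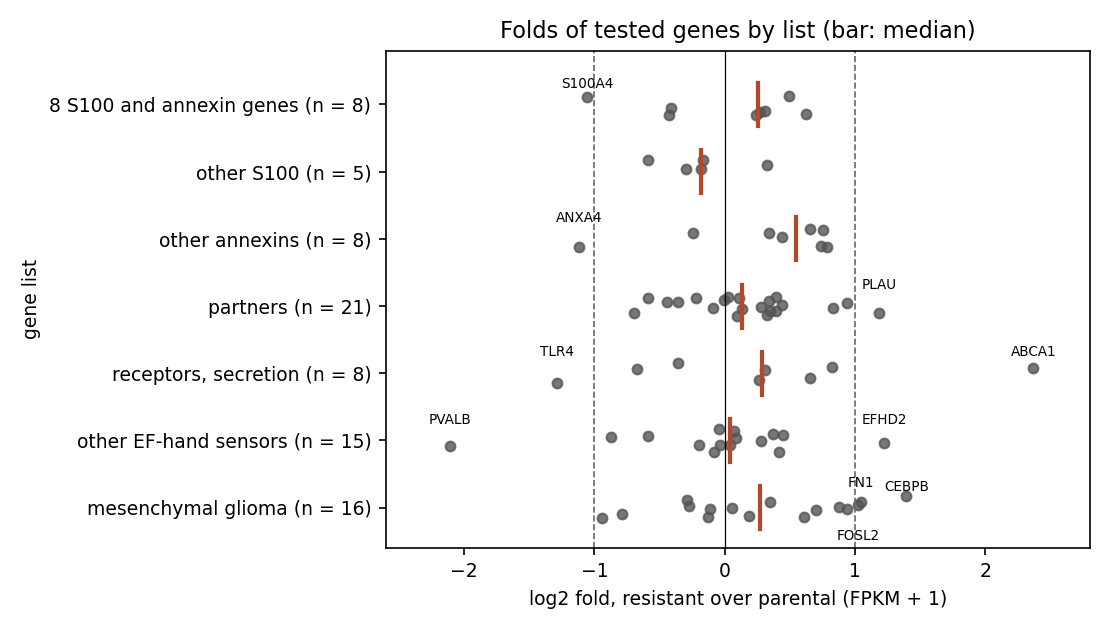
Log2 fold of each tested gene by list (points, spread vertically only to separate them), with the list's median as a red bar and dashed lines at 2-fold; called genes are named. The 8 genes run from -1.05 to 0.62, and the mesenchymal list reaches 1.39 at CEBPB.

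All 5 markers taken for a glioma line were listed. VIM had 632 FPKM in parental cells and 804 in resistant ones, and CD44 had 83.1 and 161. NES, nestin, was lower, at 33.7 and 5.08 FPKM, and so was SOX2, at 2.23 and 0.253. SOX9 had 10.3 and 8.25 FPKM. Of 6 astrocyte markers only GJA1 was listed, at 39.3 and 21.8 FPKM, and GFAP was not analysed here. Of 6 myeloid markers 2 were listed, and they summed to 2.52 and 0.919 FPKM. Of 5 endothelial markers 2 were listed, neither above 0.921 FPKM. Of 6 epithelial markers 5 were listed, summing to 607 and 1609 FPKM through KRT8 and KRT18, while EPCAM was at 0.797 and 0.669. The neuronal list had 2 of 5 listed, at 93.0 and 62.9 FPKM in sum, nearly all from TUBB3, and the oligodendrocyte list 1 of 5, OLIG2 at 1.43 and 3.42. The part of these marker differences in the S100 and annexin values was not tested. In such bulk RNA, fewer cells with a message and less message per cell cannot be told apart.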

How the data were processed

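RNA of 2 A172 cultures was sequenced after preparation with a stranded mRNA kit, per the labels' protocols. The authors deposited 1 table with FPKM for each library, per the file headers. Their scaling is not stated. For the aligner, quantification tool, annotation and build, nothing is stated in the labels or headers. Beside these the authors' table holds a log2 ratio, p-values and q-values of the authors' comparison, per the file headers. It listed 15603 genes, the higher value of each being at least 0.544 FPKM.

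Folds were computed with Python 3.11.15 and pandas 2.3.3, with a pseudocount of 1 FPKM, a filter of 1 FPKM in either library and a 2-fold threshold. The pseudocount understates changes of low genes. No p-value was computed, since 1 library per group leaves no spread. The calling rule was tested on simulated data. GENCODE release 29 (GRCh38) held 15531 identifiers, and the deposited loci of all 23 listed S100 and annexin genes contained the GENCODE gene. RefSeq windows matched all 8 genes.

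The genes and lists were chosen with earlier results of these data known. Named were the 8 genes, every listed family member, the nearest listed neighbours, and in other lists up to 4 genes with the largest folds. VIM, CD44, NES and other cell type markers, and the pairs of partners, were named for their role. TAGLN and LGALS3 were named after their values were seen. Some genes are not reported here.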

Additional observations from a re-analysis of the deposited data

How the results depend on the processing

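Alternatives were a pseudocount of 0.1 or none, no filter or one of 5 FPKM, rescaling both libraries to a sum of 1000000, upper quartile scaling, centring on the median, and thresholds of 1.5-fold and 4-fold. Those for the context lists and for single genes outside the 8, the comparison set at 50 FPKM, and scaling of the resistant library to the parental sum, were added after seeing the data. The sum of 1000000 also raised every value against the pseudocount of 1, so it changed the scale and the weight of the pseudocount together. Scaling to the parental sum left the pseudocount as it was. None of the 8 log2 folds changed sign. The log2 fold of S100A4 ran from -1.17 to -1.05 and that of S100A6 from 0.51 to 0.62. On the deposited scale, at 1.5-fold, 1 of the 8 was called higher, S100A6, and at 4-fold 0 were called lower. The log2 fold of S100A6 was 0.51 after either scaling to equal sums. It was 0.54 after upper quartile scaling and 0.58 after median centring, each just short of 1.5-fold.

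Of all tested S100 genes, at 1.5-fold 1 was called higher and 2 lower, and at 4-fold 0 lower. With a pseudocount of 0.1, with none and with the sum of 1000000, 2 S100 genes were called lower, S100A1 being the second. Among annexins, 4 were called higher at 1.5-fold and 0 lower at 4-fold. Over all tested genes, 1076 were called higher and 1029 lower with a pseudocount of 0.1, 1118 and 1025 with none, 2020 and 1674 at 1.5-fold, and 61 and 59 at 4-fold. The filter of 5 FPKM left 282 called lower, and the sum of 1000000 gave 1076, with 790 higher. Scaling to the parental sum gave 646 lower and 492 higher, and 1 S100 gene called lower. Of 80 counts of the context lists under alternatives, 55 stayed within 1.5 times and 25 did not. No paired analysis was possible because each group holds 1 library. Depth is unknown, so no counting interval is given.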
